A study of Mus musculus with 6 samples.

Results

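The molecular chaperones and heat shock genes of mouse CD8 T cells were compared between Utx KO and WT cells. Members were the genes whose symbols mark them as HSP70 (Hspa), small HSP (Hspb), HSP90 (Hsp90), HSP110 (Hsph), J protein (Dnaja, Dnajb, Dnajc) or CCT genes (Cct and Tcp1), with the mitochondrial chaperonin pair Hspd1 and Hspe1 and the heat shock factors Hsf1 and Hsf2. Of 25655 genes listed, 84 matched by name, and 64 of these reached at least 1 CPM (reads per 1000000 reads of the library) in 3 or more libraries. The choice of members used symbols and this level, not the difference between genotypes.

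Utx, encoded by Kdm6a, is an X-linked demethylase of histone H3 lysine 27. The 2 groups were Utx KO cells (Utx knockout) and WT cells, 3 libraries each, made from spleens of C57BL/6 females. Naive CD8 T cells of both genotypes received anti-TCR-beta at 3 µg/ml, anti-CD28 at 1 µg/ml and interleukin 2 at 10 ng/ml for 2 days. They were then kept in interleukin 2 at the same dose for 3 days and harvested at day 5. Neither the deleted part of the gene, any Cre driver nor the age of the mice is given in the sources used here. The titles call the libraries of a genotype biological replicates, and whether each came from its own animal is not stated. P-values thus cover the variation among these 3 libraries. These are bulk libraries: fewer cells of a kind and less RNA per cell cannot be told apart.

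Chaperones bind unfolded proteins and help them fold, assemble, cross membranes or be degraded. HSP70 proteins are ATPases that J proteins recruit to their clients, HSP90 proteins finish the folding of kinases and receptors, and the ring-shaped CCT complex folds actin and tubulin. Each compartment has its own set: Hspa5 (BiP) and Hsp90b1 (GRP94) in the endoplasmic reticulum (ER), Hspa9 and the Hspd1-Hspe1 chaperonin in mitochondria, Hspa8 and the HSP90 alpha and beta proteins in the cytosol. Activated T cells, which grow and divide fast, express them strongly. Heat shock factor 1 drives the cytosolic stress-inducible genes, and the unfolded protein response drives those of the ER.

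Libraries held 1619085 to 2517655 reads in Utx KO and 1827703 to 2529113 reads in WT, recovered as whole reads from the CPM values. At these depths, 0 reads allow up to 1.19 to 1.85 CPM in Utx KO and up to 1.19 to 1.64 CPM in WT libraries (3 reads, counting error only). Kdm6a was at 27.8, 39.4 and 31.5 CPM in Utx KO and at 44.3, 49.3 and 53.6 CPM in WT, lower in each Utx KO library but not absent. Whether the counted 3' end lies within the deleted part is not known. Of 10 T-cell genes, Trac, which these cells use, was listed at 0 in all libraries, so an exact 0 here does not show that a gene is silent. Of the 9 tested, limma called 4 higher (Cd8b1, Cd3d, Cd3e and Cd5) and 2 lower (Thy1 and Cd2) in Utx KO. Over all genes tested, 10.8% were called. Cd5 was at 50.8 ± 5.97 CPM in Utx KO and 24.6 ± 1.53 CPM in WT, and Thy1 at 563 ± 4.17 and 745 ± 16.2 CPM (SD, n = 3). The list, with moves in both directions, summed to 3001 to 3056 CPM in Utx KO and 2926 to 3045 CPM in WT. Cd8a was at 292 ± 11.8 CPM in Utx KO and 257 ± 15.6 CPM in WT (SD, n = 3). Of 63 marker genes of other spleen cells, 37 were likewise listed at 0 in all libraries, among them Cd4, Cd79a, Ms4a1 and all 8 neutrophil genes. Those 63 summed to 30.6 to 39.5 CPM in Utx KO and 33.6 to 41.9 CPM in WT, and 0 of the 7 that could be tested were called by limma. Within them the B-cell list summed to 1.14 to 3.09 CPM in Utx KO and 3.23 to 6.57 CPM in WT, and the dendritic list to 1.99 to 5.56 and 6.45 to 11.9 CPM. The other way went the erythroid list, at 2.28 to 3.09 CPM in Utx KO and 0 to 1.38 CPM in WT. So did the plasma-cell list, at 0.571 to 1.19 CPM in Utx KO and 0 to 0.547 CPM in WT. Mitochondrially encoded genes took 1.53 to 1.83% of reads in Utx KO and 2.07 to 2.51% in WT. The part of these differences in the results was not tested.

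The chaperone genes as a whole took a share of the reads that overlapped between genotypes, while single members moved both ways. The 64 members together held 2.26 ± 0.0301% of reads in Utx KO and 2.20 ± 0.0384% in WT (SD, n = 3). Of the 64 members, 6 rose and 4 fell in Utx KO at an adjusted p under 0.05 (limma on log2(CPM + 1), adjusted over all 10590 genes tested). That is 9.38% and 6.25% of members, where 5.28% of all genes tested were called higher and 5.51% called lower (10.8% in all). These shares of all genes are the background for each count by family or list below. DESeq2 called 2 members higher and 2 lower, against 2.28% and 2.93% of all genes, and a replicate block called 5 and 3, against 4.86% and 5.19%. Of the 29 members with a mean of at least 100 CPM, 7 were called, or 24.1%, where 23% of all genes at that level were called, so the members' share is near the background. The median log2 fold change was 0.00 over members and 0.01 over all genes. Groups did not overlap for 24 members, or 37.5%, against 26.5% of all genes: 13 members lay higher in Utx KO (14% of all genes did) and 11 lower (12.6% of all genes). Abundant members changed by small amounts: among the 29, log2 fold changes ran from −0.31 to 0.23.

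**Figure D1:**
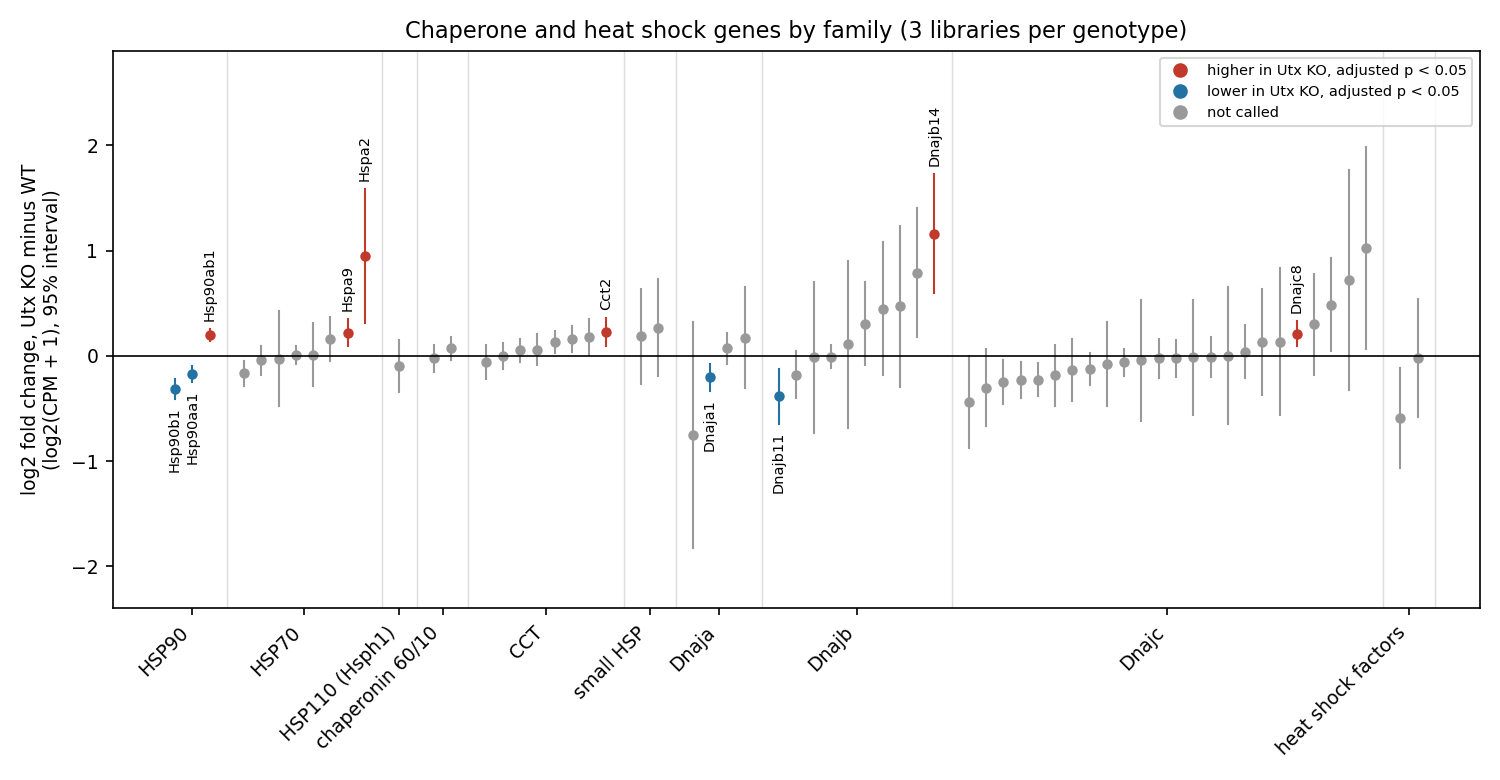
Fitted log2 fold change (Utx KO minus WT, on log2(CPM + 1)) of the 64 members by family, with 95% intervals from limma, 3 libraries per genotype. The 10 named members passed an adjusted p of 0.05, and all 3 HSP90 genes are among them.

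HSP90 was the family in which every member changed, and its members moved in opposite directions. All 3 averaged at least 959 CPM, and 23% of all genes at 100 CPM or more were called. Hsp90ab1 (HSP90 beta), the constitutive cytosolic form, rose. Hsp90aa1 (HSP90 alpha), the stress-inducible cytosolic form, fell, as did Hsp90b1, the form of the ER lumen. Hsp90ab1, on chromosome 17 at 45567775 to 45573271 (GRCm38), was the most abundant chaperone of these cells.

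Hsp90ab1 was at 7947, 7935 and 7890 CPM in Utx KO and at 6862, 6972 and 6912 CPM in WT, here and below in the order of the replicate numbers. All Utx KO libraries lay above all WT libraries, with a spread within each genotype far smaller than the gap. The gene rose by 14.6%, or 0.20 ± 0.03 (SE) in log2 units, with an adjusted p of 1.85e-05 by limma. Hsp90aa1 (chromosome 12, 110690605 to 110702728) was at 2813, 2861 and 2781 CPM in Utx KO and at 3137, 3330 and 3054 CPM in WT. The groups did not overlap, and the gene fell by 0.17 on the log2 scale (SE 0.04, limma adjusted p = 0.00252). Its 3' end sequence occurs to 37.6% in 2 other transcript models, 0 of which are among the genes listed. Reads of these could add to or be lost from Hsp90aa1, by an amount not known. None of the 3' end sequence of Hsp90ab1 or Hsp90b1 occurs elsewhere.

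The balance between both cytosolic forms was also read per library. Hsp90ab1 had 2.83, 2.77 and 2.84 times the CPM of Hsp90aa1 in Utx KO libraries, and 2.19, 2.09 and 2.26 times in WT libraries. In 3' end counting a transcript gives about 1 tag whatever its length, so such ratios compare transcripts. The ratios of the genotypes did not overlap, which follows from the opposite, non-overlapping moves of both genes and is no further evidence. Summed, both cytosolic forms gave 10742 ± 64.9 CPM in Utx KO and 10089 ± 185 CPM in WT (SD, n = 3). All 3 HSP90 genes together made up 51.4% of member reads in Utx KO and 50.7% in WT.

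**Figure D2:**
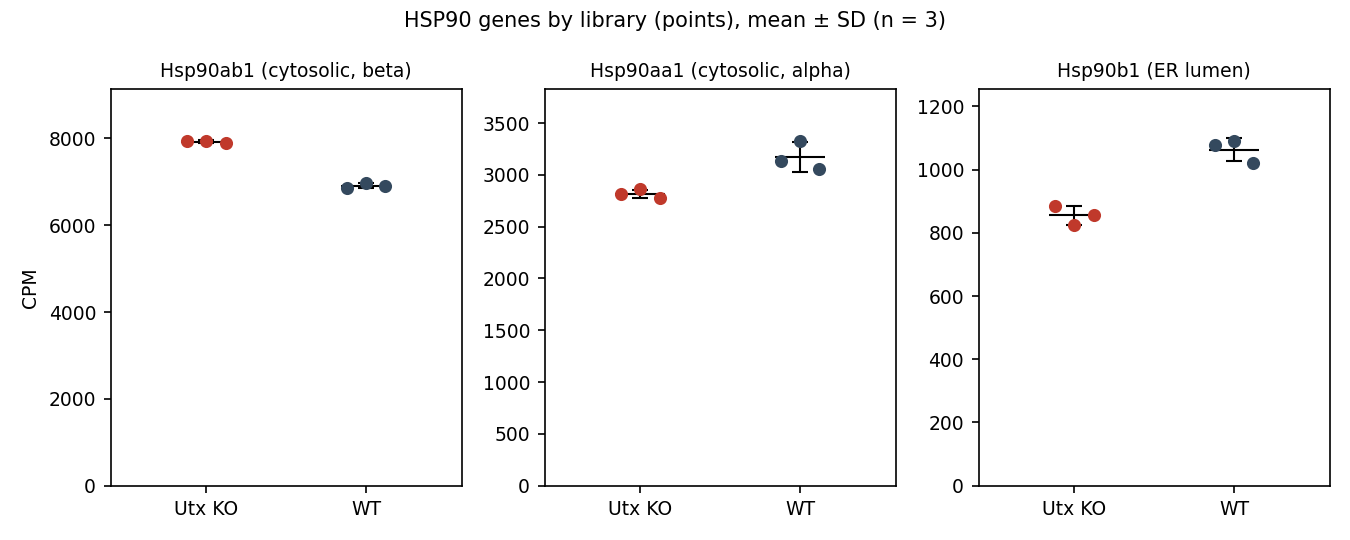
CPM of the 3 HSP90 genes in each library (points), with mean and SD of 3 libraries per genotype, on axes that start at 0. Utx KO libraries lie above all WT libraries for Hsp90ab1 and below all of them for Hsp90aa1 and Hsp90b1.

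In the ER lumen, Hsp90b1 and Dnajb11 fell in Utx KO, and the levels of Hspa5, Dnajc3 and Dnajc1 were 10.9 to 16.0% lower without passing the test. Of the 8 members that reside in the ER lumen, grouped after their values were seen, 0 rose and 2 fell, and the median log2 fold change was −0.20. Their summed level was 1972 ± 60.9 CPM in Utx KO and 2329 ± 71.8 CPM in WT (SD, n = 3), with no overlap between genotypes and no test, since the group was formed from its values.

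Hsp90b1 (chromosome 10, 86690209 to 86705509), which folds Toll-like receptors and integrins, was at 885, 826 and 855 CPM in Utx KO and at 1079, 1091 and 1020 CPM in WT. All Utx KO libraries were lower, and by limma the gene fell by 0.31 ± 0.05 (SE) in log2 units (adjusted p = 4.16e-05). Exons of Hsp90b1 overlap those of other annotated genes on both strands, and the treatment of strand in counting is not given in the sources used here. Dnajb11 (ERdj3), a J protein that hands secreted clients to BiP, was at 49.6, 48.0 and 40.8 CPM in Utx KO and at 58.5, 57.1 and 65.7 CPM in WT. It fell by 0.38 on the log2 scale with a limma adjusted p of 0.0488, just under the threshold. That call was lost in 11 of 17 alternative settings, among them edgeR (adjusted p = 0.0591), DESeq2 (0.327) and the replicate block (0.0668), over a range of 0.0358 to 0.327. It was also lost without Utx KO replicate 2 (0.0751) or 3 (0.189) and without WT replicate 1 (0.10), 2 (0.0886) or 3 (0.190).

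Dnajc3 (P58IPK), a BiP cochaperone that also restrains the kinase PERK, was at 152, 159 and 156 CPM in Utx KO and at 183, 180 and 183 CPM in WT. These groups were well apart, with an adjusted p of 0.0534 by limma and 0.0444 by edgeR (log2 fold change −0.22, 0.0444 to 0.246 over 17 alternatives). Hspa5 itself, the master chaperone of the ER, was at 792, 726 and 705 CPM in Utx KO and at 806, 903 and 786 CPM in WT. The groups overlapped in 1 pair of libraries, and the log2 fold change of −0.17 had a limma adjusted p of 0.0602. It passed with robust eBayes on all libraries (limma adjusted p = 0.0291), without Utx KO replicate 1 (−0.21, limma adjusted p = 0.00987) and without WT replicate 3 (−0.20, limma adjusted p = 0.0394), in a range of 0.00987 to 0.363 over all alternatives. Dnajc1 (ERdj1), a membrane J protein at the ribosome, was at 95.6 ± 6.10 CPM in Utx KO and 114 ± 14.8 CPM in WT (limma adjusted p = 0.141). Not all ER members followed: Dnajc10 (ERdj5, a disulfide reductase) was at 58.8 ± 3.48 and 57.4 ± 6.98 CPM, Hspa13 at 15.3 ± 1.56 and 15.8 ± 3.25 CPM, and Dnajb9 (ERdj4) at 4.35 ± 0.564 and 4.46 ± 2.74 CPM in Utx KO and WT (SD, n = 3).

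**Figure D3:**
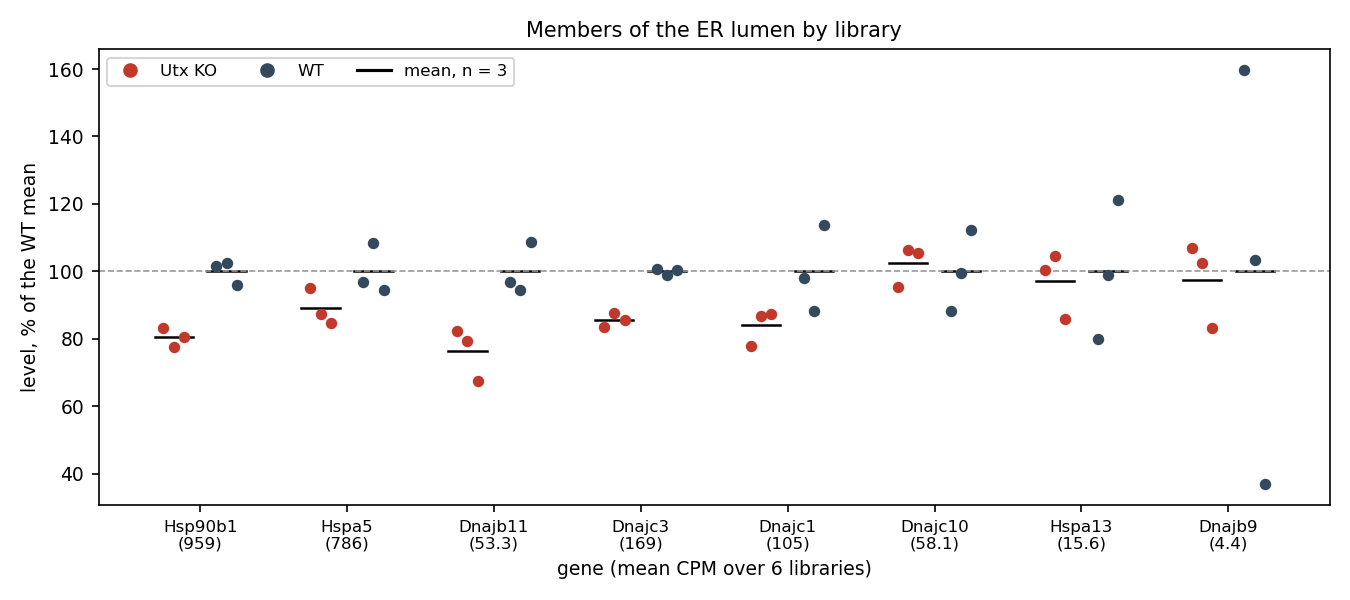
Levels of the 8 members of the ER lumen in each library as percent of the gene's WT mean (points), with the mean of 3 libraries per genotype (bars) and mean CPM under each name. All Utx KO libraries lie below all WT libraries for Hsp90b1, Dnajb11, Dnajc3 and Dnajc1; Dnajb9 has few reads and scatters widely in WT.

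The promoters of Hsp90b1, Hspa5 and Dnajc3 hold a known sequence feature, and that of Dnajc1 holds no match. They are shown because the ER stress element, CCAAT and CCACG with 9 bases between them, is bound by NF-Y at its CCAAT part and by ATF6 at its CCACG part when the unfolded protein response is on. It was searched on both strands from 250 bases before to 50 after each annotated start (RefSeq, GRCm38.p6); a sequence was found for 51 of 64 members, and motifs were chosen after the values were seen. Capitals mark the match, 5′ to 3′ on the gene's strand, and the stretches end at the last base before the start.
Hsp90b1, chr10:86705445-86705694, minus strand: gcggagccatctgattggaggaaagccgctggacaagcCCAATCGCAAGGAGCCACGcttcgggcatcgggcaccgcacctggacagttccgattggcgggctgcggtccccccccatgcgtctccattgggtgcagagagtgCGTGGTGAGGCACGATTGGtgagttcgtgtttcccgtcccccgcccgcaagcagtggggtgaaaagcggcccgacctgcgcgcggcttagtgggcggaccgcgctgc
Hspa5, chr2:34771840-34772089, plus strand: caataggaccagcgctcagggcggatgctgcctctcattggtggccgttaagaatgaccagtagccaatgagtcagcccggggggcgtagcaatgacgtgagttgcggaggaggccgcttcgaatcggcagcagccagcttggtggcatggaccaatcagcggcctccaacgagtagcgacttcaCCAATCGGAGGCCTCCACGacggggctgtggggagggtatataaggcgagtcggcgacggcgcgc
Dnajc3, chr14:118937682-118937931, plus strand: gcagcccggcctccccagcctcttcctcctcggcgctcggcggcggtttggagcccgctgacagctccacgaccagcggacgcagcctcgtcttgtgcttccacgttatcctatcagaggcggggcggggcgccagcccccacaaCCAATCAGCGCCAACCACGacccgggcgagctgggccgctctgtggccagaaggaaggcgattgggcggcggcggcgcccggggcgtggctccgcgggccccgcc
Hsp90b1 held 2 matches, 1 in each orientation, and Hspa5 and Dnajc3 1 each. Of 27025 genes with a promoter sequence, 0.137% hold this element, and 3 of the 51 members do. Such shares describe the sequences and are no test of enrichment, since the motifs were chosen after the values were seen. The shorter ER stress element II, ATTGG and CCACG with 1 base between them, which overlaps the reverse of the CCAAT box, occurs in 0.0444% of genes and in 1 member, Dnajb11, from base 8 of the transcript. Of 8 tested genes that hold it, 4 had a negative log2 fold change.
Dnajb11, chr16:22857843-22857872, plus strand: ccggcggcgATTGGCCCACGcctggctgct
Of 12 tested genes with the longer element, 10 had a negative log2 fold change and 1, Hsp90b1, was called; the median was −0.13. The element was chosen for the 3 members among them. Without these, 7 of 9 were negative with a median of −0.07, 0 were called by limma, and 49.0% of all genes tested were negative, so this tally gives no independent evidence. Calr, a lectin chaperone of the ER and 1 of these 12, was at 550 ± 26.5 CPM in Utx KO and 578 ± 14.6 CPM in WT. Canx, the other lectin chaperone, was at 537 ± 6.61 CPM in Utx KO and 559 ± 14.1 CPM in WT (SD, n = 3), and neither passed the test. A match describes the sequence and says nothing of whether the site is used here.

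ER folding genes outside the members gave no common direction. Of 25 tested folding enzymes and unfolded protein response genes, 1 rose and 1 fell, with a median log2 fold change of −0.06. The rise was in Ddit3 (CHOP), a factor of the stress response, at 71.0 ± 12.7 CPM in Utx KO and 40.9 ± 10.5 CPM in WT (SD, n = 3). The fall was in Selenos, which works in ER-associated degradation, at 205 ± 18.9 CPM in Utx KO and 249 ± 21.8 CPM in WT.

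HSP70 genes differed in their calls. The mitochondrial Hspa9 (mortalin), which pulls proteins into the matrix, rose. The cytosolic Hspa8 (HSC70), the most abundant HSP70, overlapped between genotypes, and Hspa2 rose at a low level. Of 8 Hspa members kept, 2 rose and 0 fell, where 5.28% of all genes tested were called higher and 5.51% lower.

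Hspa9 was at 371, 336 and 338 CPM in Utx KO and at 299, 296 and 300 CPM in WT. All Utx KO libraries were higher, by 0.22 ± 0.06 (SE) in log2 units (adjusted p = 0.0225 by limma). The call was lost with DESeq2 (0.0985), without Utx KO replicate 1 (limma adjusted p = 0.0883) and without WT replicate 1 (0.0664), 2 (0.0845) or 3 (0.0547); over the alternatives it ran from 0.0133 to 0.0985. Its level relative to that of Hspa5 was 0.470 ± 0.00827 in Utx KO and 0.360 ± 0.0284 in WT (SD, n = 3).

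Hspa8 was at 1652, 1595 and 1684 CPM in Utx KO and at 1692, 1656 and 1554 CPM in WT. The groups overlapped, and the 95% interval of the log2 fold change ran from −0.08 to 0.10. Its 3' end sequence occurs to 73.7% in 11 other transcript models, so reads of these could add to or be lost from it. Hspa2, an HSP70 best known from testis, was at 6.75, 10.3 and 8.03 CPM in Utx KO and at 3.95, 4.15 and 3.28 CPM in WT. Its limma adjusted p of 0.0482 was lost in 13 of 17 alternatives, ranging from 0.0332 to 0.343, the highest with DESeq2, and 0.0611 with the replicate block. Leaving out single libraries gave 0.0546 and 0.185 without Utx KO replicates 1 and 2, and 0.0952 without replicate 3. Without WT replicates 1, 2 and 3 the limma adjusted p of Hspa2 was 0.0941, 0.0881 and 0.124.

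HSP110-type exchange factors, which release nucleotide from HSP70, did not pass the test. Hspa4 was at 352 ± 17.5 CPM in Utx KO and 363 ± 31.9 CPM in WT, and Hsph1 at 66.2 ± 8.91 and 70.7 ± 7.51 CPM (SD, n = 3). The 95% intervals of their log2 fold changes ran from −0.18 to 0.10 and from −0.35 to 0.15. Hspa14, a ribosome-associated HSP70, was at 90.3 ± 7.26 CPM in Utx KO and 80.5 ± 1.30 CPM in WT (limma adjusted p = 0.374).

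The strongly heat-inducible HSP70 genes were at the floor in both genotypes. Hspa1a had 1 read in all Utx KO libraries together and 0 in WT, and Hspa1b had 1 read in Utx KO and 1 in WT. Hspb1 (HSP25), another classic heat shock target, had 3 reads in Utx KO and 6 in WT. No difference could be detected at this depth, and no fold is given. In all, 20 members did not reach the level needed, 10 with 0 reads in every library and 10 with at most 5 reads in a library. Just inside the limit were Dnajc12 with 3 libraries at 1 CPM and Dnajc28 with 4, and just outside it Hspb1 with 2.

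The mitochondrial chaperonin, the barrel Hspd1 (HSP60) with its lid Hspe1 (HSP10), did not pass the test. Hspd1 was at 783, 743 and 733 CPM in Utx KO and at 707, 768 and 679 CPM in WT, and Hspe1 at 358, 334 and 325 CPM in Utx KO and at 339, 354 and 340 CPM in WT. Both overlapped between genotypes, with 95% intervals of the log2 fold change from −0.04 to 0.18 and from −0.15 to 0.10. At least 39.2% of the 3' end sequence of each occurs in other transcript models. These genes lie head to head on chromosome 1 and read outward from 1 promoter. Of the 8 mitochondrial members, grouped after their values were seen, 1 rose (Hspa9) and 0 fell. Their summed level was 1641 ± 61.1 CPM in Utx KO and 1567 ± 59.7 CPM in WT (SD, n = 3), with overlapping libraries. Reads of mitochondrially encoded genes were lower in Utx KO, as given above, and the part of this in the chaperone values was not tested. Among 17 tested import and quality-control genes outside the members, 1 rose and 0 fell: Lonp1, the matrix protease, was at 177 ± 15.3 CPM in Utx KO and 144 ± 5.89 CPM in WT. Of the 17, 13 were higher and 4 lower, with a median log2 fold change of 0.11. They summed to 934 to 977 CPM in Utx KO and 845 to 880 CPM in WT, with no test.

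Heat shock elements are shown next, since heat shock factor 1 binds such inverted GAA repeats. The motif GAA, TTC and GAA with 2 bases between neighbours, searched on both strands in the same windows, occurs in 0.662% of genes and in 4 of 51 members, namely Hspd1, Hspe1, Dnajb6 and Hsph1. Capitals mark the matches. The stretch of Hspd1 and Hspe1 is the same, read from opposite strands, and holds 2 overlapping matches in opposite orientation.
Hspd1, chr1:55088053-55088082, minus strand: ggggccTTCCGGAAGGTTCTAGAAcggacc
Hspe1, chr1:55088053-55088082, plus strand: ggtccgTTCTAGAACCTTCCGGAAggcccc
Dnajb6, chr5:29735844-29735873, plus strand: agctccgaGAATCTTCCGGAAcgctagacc
Hsph1, chr5:149636279-149636308, minus strand: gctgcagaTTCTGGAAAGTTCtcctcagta
Of these 4 members, 0 rose and 0 fell by limma. Of 45 tested genes with the element, 7 rose, 0 fell and 27 had a negative log2 fold change. Over all genes tested, limma called 5.28% higher and 5.51% lower, and 49.0% were negative. The 7 were Rps18, Rpl22, Ahcy, Slc29a1, Coro2a, Uchl1 and Mgmt, none of them a member. Whether the element has a part in their rise was not tested. Dnajb6, a J protein that suppresses aggregation, was at 491, 482 and 511 CPM in Utx KO and at 498, 500 and 492 CPM in WT, with overlapping groups.

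Subunits of CCT, the cytosolic chaperonin ring, were slightly higher for most genes. Of 8 subunits, 1 rose (Cct2) and 0 fell, 6 had a positive log2 fold change, and the median was 0.10. All 8 averaged above 100 CPM, a level at which limma called 23% of all genes. Of all genes tested, 49.0% had a negative log2 fold change. Summed, the 8 subunits gave 3142, 2991 and 3010 CPM in Utx KO and 2841, 2811 and 2881 CPM in WT. These sums did not overlap, at a ratio of 1.07.

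Cct2 (CCT beta) was at 366, 335 and 374 CPM in Utx KO and at 323, 299 and 294 CPM in WT, a rise of 0.23 ± 0.06 (SE) in log2 units (adjusted p = 0.0218 by limma). The call was lost with DESeq2 (0.0981), without Utx KO replicate 3 (limma adjusted p = 0.0998) and without WT replicate 2 (0.0969) or 3 (0.0948); the range over alternatives was 0.0125 to 0.0998. Cct5 was at 353 ± 10.3 CPM in Utx KO and 316 ± 7.51 CPM in WT, with no overlap (limma adjusted p = 0.0939). Cct7, the most abundant subunit transcript, was at 892 ± 35.1 CPM in Utx KO and 816 ± 49.4 CPM in WT (limma adjusted p = 0.112, and 0.0392 without WT replicate 3, in a range of 0.0392 to 0.357). Cct4 was at 157 ± 9.02 and 139 ± 9.33 CPM, and Cct8 at 447 ± 2.85 and 431 ± 9.25 CPM, in Utx KO and WT. For the remaining subunits the groups overlapped. Tcp1 was at 402 ± 10.6 CPM in Utx KO and 403 ± 30.3 CPM in WT, Cct6a at 260 ± 24.9 and 249 ± 7.78 CPM, and Cct3 at 178 ± 14.5 and 186 ± 4.70 CPM (SD, n = 3). Subunits that occupy the ring in equal numbers thus ranged from 148 to 854 CPM on average at the transcript level.

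**Figure D4:**
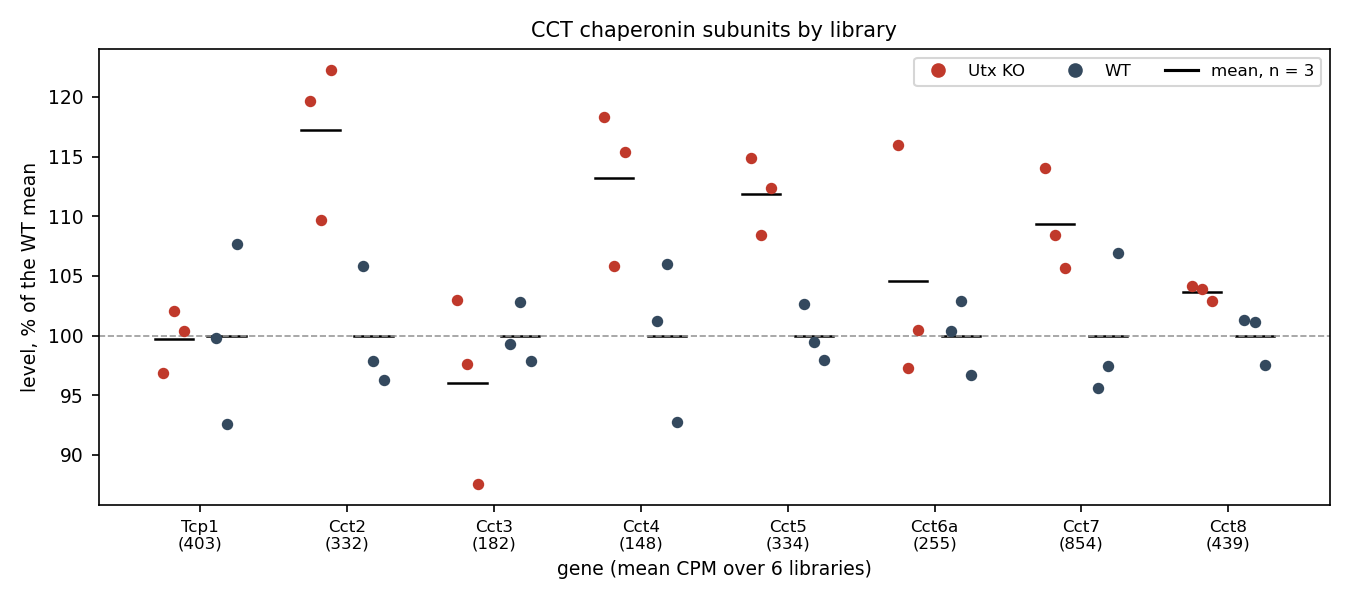
Levels of the 8 CCT subunits in each library as percent of the gene's WT mean (points), with the mean of 3 libraries per genotype (bars); the axis does not start at 0. The Utx KO mean lies above the WT mean for 6 subunits, and the groups do not overlap for Cct2, Cct5 and Cct8. Of all genes tested, 14% lay higher in Utx KO without overlap.

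Prefoldin, which delivers actin and tubulin to CCT, and other CCT cofactors gave 0 rises and 2 falls among 12 tested genes. The prefoldin subunit Pfdn1 was at 132 ± 16.6 CPM in Utx KO and 172 ± 3.33 CPM in WT (SD, n = 3), a fall with a limma adjusted p of 0.00442. Txndc9, an inhibitor of CCT, was at 63.6 ± 4.49 CPM in Utx KO and 81.4 ± 6.71 CPM in WT. Of the 12, 6 were higher and 6 lower. Pfdn5, another prefoldin subunit, was at 160, 161 and 160 CPM in Utx KO and at 143, 130 and 140 CPM in WT (limma adjusted p = 0.0846), and Pdrg1 and Vbp1 also lay higher in all Utx KO libraries without passing.

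J proteins, which choose the clients of HSP70, gave 2 rises and 2 falls among 38 members kept, with a median log2 fold change of −0.01. Limma called 5.28% of all genes tested higher and 5.51% lower. Dnajb14 showed the largest fitted change of all members. This J protein of the ER membrane faces the cytosol and works with HSC70. It was at 12.7, 22.8 and 13 CPM in Utx KO and at 7.91, 5.53 and 6.02 CPM in WT. All Utx KO libraries were higher, replicate 2 most of all (log2 fold change 1.16, SE 0.27, limma adjusted p = 0.00561). Without Utx KO replicate 2 the log2 fold change was 0.90, with a limma adjusted p of 0.0702 (0.00168 to 0.0702 over the alternatives). Exons of Dnajb14 overlap those of other annotated genes on both strands, and it had 11 to 40 reads per library. Its relative Dnajb12, at the same membrane, was at 27.4 ± 4.73 CPM in Utx KO and 22.1 ± 4.34 CPM in WT and did not pass.

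Dnajc8, a J protein found with the splicing machinery, was at 536, 505 and 560 CPM in Utx KO and at 444, 470 and 466 CPM in WT. The groups did not overlap, and the gene rose by 0.21 ± 0.06 (SE) in log2 units (adjusted p = 0.0134 by limma). This call was lost with DESeq2 (0.0510), without Utx KO replicate 3 (limma adjusted p = 0.0853) and without WT replicate 1 (0.0760), in a range of 0.00646 to 0.0853. Dnaja1 (HDJ2), a main cytosolic partner of HSC70, was at 305, 280 and 303 CPM in Utx KO and at 350, 338 and 334 CPM in WT. It fell by 0.20 on the log2 scale (SE 0.06, limma adjusted p = 0.0354), and 52.3% of its 3' end sequence occurs in 3 other transcript models. That call was lost with DESeq2 (0.126) and without any 1 of 5 libraries. These were Utx KO replicates 2 (limma adjusted p = 0.159) and 3 (0.0506) and WT replicates 1 (0.147), 2 (0.0976) and 3 (0.0644), and the range over alternatives was 0.0250 to 0.159.

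Dnajb1 (HSP40), the inducible partner of HSP70, was at 64.3, 61.1 and 59.3 CPM in Utx KO and at 68.4, 71.9 and 68.9 CPM in WT. The groups did not overlap, but with these read numbers the difference did not pass (log2 fold change −0.18, limma adjusted p = 0.356). Of all 38 J proteins, called ones included, 6 lay higher and 8 lower in Utx KO without overlap, where 14% and 12.6% of all genes did. Among those lower without a call was Dnajc21, a factor of large ribosomal subunit assembly, at 161 ± 14.9 CPM in Utx KO and 188 ± 11.3 CPM in WT. Another was Dnajc9, a histone chaperone, at 186 ± 10.7 and 202 ± 7.42 CPM. Dnajb2 lay higher without overlap, at 7.93 ± 0.466 CPM in Utx KO and 4.16 ± 0.212 CPM in WT (SD, n = 3, limma adjusted p = 0.0983). Dnajc2, a J protein of the ribosome, was at 399 ± 28.5 and 416 ± 24 CPM, and Dnaja2 at 260 ± 24 and 247 ± 7.37 CPM. Other J proteins had few reads. Dnajc28 was at 2.06 ± 0.383 CPM in Utx KO and 0.593 ± 0.712 CPM in WT, and Dnaja4 at 3.47 ± 4.07 and 4.32 ± 0.619 CPM. Dnajc25 was at 14.0 ± 1.28 CPM in Utx KO and 19.4 ± 3.44 CPM in WT, and Dnaja3, a mitochondrial J protein, at 15.6 ± 4.22 and 13.4 ± 1.62 CPM. Of these 4, 0 passed the test by limma. The other 17 J proteins and Hspa4l averaged 2.96 to 143 CPM, with log2 fold changes from −0.30 to 0.49; 8 were higher, 10 were lower and 0 passed (lowest limma adjusted p = 0.166).

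Small heat shock proteins, which hold unfolded proteins without ATP, were few in these cells. Of 8 Hspb genes, 2 were kept, and neither passed. Hspb6 (HSP20) was at 16.8 ± 1.24 CPM in Utx KO and 14.1 ± 3.41 CPM in WT, and Hspb11, a subunit of the ciliary transport complex rather than a classic chaperone, at 17.8 ± 3.25 and 15.6 ± 3.11 CPM (SD, n = 3).

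The heat shock factors themselves did not pass the test. Hsf1 was at 9.14, 8.57 and 9.26 CPM in Utx KO and at 6.72, 12 and 9.30 CPM in WT. Hsf2 was at 12.3, 9.14 and 9.88 CPM in Utx KO and at 17.8, 14.7 and 15.9 CPM in WT. For Hsf2, which binds the same element and acts with Hsf1, the groups did not overlap, with a log2 fold change of −0.59 (SE 0.23, limma adjusted p = 0.110).

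Cochaperones that link HSP70 and HSP90 to each other and to clients gave 3 rises and 0 falls among 31 tested genes. Over all genes tested, limma called 5.28% higher and 5.51% lower. The median log2 fold change of the 31 was 0.04. Fkbp4 (FKBP52), the isomerase bound to HSP90 in steroid receptor complexes, was at 225 ± 13.6 CPM in Utx KO and 181 ± 14.2 CPM in WT (log2 fold change 0.32, limma adjusted p = 0.00799). Cdc37, which brings kinases to HSP90, was at 320 ± 25.7 CPM in Utx KO and 276 ± 11.8 CPM in WT. St13 (HIP), which stabilises HSP70 on its client, was at 298 ± 23.5 CPM in Utx KO and 255 ± 18.4 CPM in WT. Limma adjusted p was 0.0493 for Cdc37 and 0.0484 for St13, both just under the threshold, and their values in other settings are not given here. The groups of St13 overlapped, with 274 CPM in Utx KO replicate 2 and 275 CPM in WT replicate 2. Stip1 (HOP), the adaptor between HSP70 and HSP90, was at 204 ± 7.80 and 183 ± 9.57 CPM, and Ahsa1, the activator of the HSP90 ATPase, at 140 ± 1.61 and 139 ± 6.95 CPM, and neither passed. Of 18 peptidyl-prolyl isomerases tested, a list without Fkbp4 that shares Ppid with the cochaperones, 0 rose and 0 fell by limma. Of the 18, 5 were higher and 13 lower, where 49.0% of all genes tested were lower. They summed to 3018 to 3174 CPM in Utx KO and 3293 to 3388 CPM in WT, with no test. Immediate-early genes, which respond to cell handling, gave 2 rises (Btg2 and Nr4a1) and 1 fall (Ier3) among 14 tested. Replicate 1 stood apart for some of them in both genotypes: Egr1 was at 62.0, 15.4 and 10.5 CPM in Utx KO and at 80.3, 13.8 and 10.9 CPM in WT. Dusp1 was at 29.0, 14.3 and 13.6 CPM in Utx KO and at 31.2, 15.7 and 19.1 CPM in WT. The part of this in the chaperone values was not tested.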

How the data were processed

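Messenger RNA was measured in 6 libraries of cultured CD8 T cells with a QuantSeq 3' kit from 500 ng of total RNA, per the labels' protocols. The authors deposited a CPM value per Ensembl gene and library, where each column sums to 1000000, as the values themselves show. GRCm38 and mm10 are the builds in the submitters' processing notes; for the aligner, the counting, its strand setting and any filter the answer is not given in the sources used here. Every value above 0 was a whole number of reads (100%, tolerance 0.001 reads), with 1619085 to 2529113 reads per library. Symbols came from the supplied name table (25600 of 25655 identifiers).

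Genotypes were compared by limma-trend (limma 3.58.1, R 4.3.3) in a model of genotype alone, fitted to log2(CPM + 1) of the 10590 genes with at least 1 CPM in 3 libraries. Fold changes are on that scale, which understates changes of low genes. Tests were two-sided, with Benjamini-Hochberg adjustment over all genes tested and a threshold of 0.05. Alternatives were edgeR 4.0.16, DESeq2 1.42.0 and limma-voom on recovered reads, other pseudocounts, filters and scalings, a replicate block and leaving out each library. The scripts were tested on simulated data.

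Members were named if called, if in a fixed set, among the 5 most abundant, or the extremes of a family. Dnajc1, Dnajc10, Dnajc2, Dnajc9, Dnajc21, Dnajc12, Dnaja2, Dnajb2, Dnajb6, Dnajb12, Hspb1, Cd8a, Calr, Canx, Stip1, Ahsa1, Pfdn5, Pdrg1, Vbp1, Trac, Egr1 and Dusp1 were added after their values were seen, as were the compartment groups and the motifs. The members and lists were chosen with earlier results of these data known. Shared sequence was sought by matching 50-nt pieces of members' transcript ends (300 nt) to transcripts of other genes in GENCODE M21: 5 members shared at least 20%. Cct6a gave 0 pieces, so its end was not checked. Exons of another gene overlapped 11 members in the same and 23 in the opposite orientation.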

Additional observations from a re-analysis of the deposited data

How the results depend on the processing

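Over 17 alternatives, Hsp90ab1, Hsp90aa1 and Hsp90b1 kept their direction and their call in each; the highest adjusted p was 0.00159, 0.0381 and 0.000954. The other 7 calls were lost in 1 to 13 alternatives. Of 64 members, 6 were called higher and 4 lower; DESeq2 called 2 and 2, with 551 of all genes against 1142. Leaving out 1 library gave 3 to 4 members higher and 2 to 6 lower, and 747 to 1056 genes in all, lowest without WT replicate 2. The median over members ran from −0.0016 to 0.041 there. Without the 5 members whose 3' ends are shared, an alternative chosen after seeing the data, 6 were higher and 2 lower, since Hsp90aa1 and Dnaja1 are among those left out. The replicate block gave 5 higher and 3 lower and 1065 genes in all. Replicate 1 of both genotypes was high in Egr1 and Dusp1. Over all genes, deviations from the group means of same-numbered libraries correlated at −0.010 to 0.0060. Such a correlation cannot show whether same-numbered libraries shared a day or handling that moves few genes, and the labels do not state it. Under the block Dnajb11 and Hspa2 lost their calls.

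The sign of 27 of the 64 members turned in some setting, 12 of them named by the rule, and the cause was not tested. Leaving out 1 library gave log2 fold changes of −0.11 to 0.0036 for Cct3, −0.016 to 0.11 for Cct6a, −0.0080 to 0.37 for Dnaja3 and −1.51 to 0.073 for Dnaja4. They ran from −0.34 to 0.47 for Dnajb9, −0.21 to 0.16 for Hsf1, −0.17 to 0.11 for Hspa13 and −0.10 to 0.023 for Hspa4. They ran from −0.027 to 0.035 for Hspa8, −0.063 to 0.0073 for Hspe1, −0.18 to 0.011 for Hsph1 and −0.055 to 0.053 for Tcp1. Limma-voom gave 0.021 for Hsf1, 0.019 for Hspa13 and 0.00091 for Tcp1, and DESeq2 −0.063 for Dnajb9. None of these 12 was called by limma with all libraries. Depth limits the 20 members that did not reach the level tested.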
